A study of Macaca fascicularis with 32 samples.

Results

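The comparison described here is that of nuclei from the substantia nigra (SN) of cynomolgus macaques in a Parkinson's disease model (PD) with nuclei from the same region of control animals (CT). The organism label is that of the cynomolgus macaque, while the extraction protocol in the labels names Macaca mulatta, the rhesus macaque, and the species of each library was not tested. Members were all cell barcodes with 500 or more detected genes in the SN PD and SN CT count matrices, 8503 and 9861 barcodes, together 18364 of the 55091 barcodes of the series that met this minimum. The series also holds the putamen (PUT) and caudate nucleus (CN), the striatal targets of nigral dopamine neurons, which were used for comparison only. Per its title, the model combined an adeno-associated virus (AAV) for α-synuclein with poly(ADP-ribose), and the treatment labels read only PD and CT. What the controls received, the promoter of the virus, the dose, the time after treatment and the age of the animals are not stated in the labels. The labels list 4 samples for SN PD and 4 for SN CT among 32 in all, but each region and treatment has 1 pooled matrix in which the barcodes are not tied to samples. Each side was therefore 1 library without replicates, and no test, SE or p-value is given. An effect of treatment and a difference between animals or libraries cannot be told apart.

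The SN holds the cell bodies of midbrain dopamine neurons, which make dopamine through tyrosine hydroxylase (TH) and aromatic L-amino acid decarboxylase (DDC), load it into vesicles through SLC18A2 and recover it through the transporter SLC6A3. These neurons are lost in Parkinson's disease. Poly(ADP-ribose) is a polymer that PARP enzymes build from NAD and that the hydrolase PARG takes down. Microglia are the resident macrophages of the brain, and major histocompatibility complex (MHC) molecules display peptides to T cells. Interferon-γ, a cytokine of T and NK cells, induces the transcription factor IRF1, MHC genes and chemokines such as CXCL10 in many cell types.

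The counts were unique molecular identifiers (UMIs), which count captured RNA molecules, summed over the barcodes of a library and divided by its total to give CPM, the usual per-million scale. SN CT held 22125626 UMIs and SN PD 18394763, with a median of 1255 and 1177 UMIs and 887 and 838 genes per barcode. Barcodes with fewer than 1000 genes made up 60.7% of SN CT and 64.8% of SN PD, and doublets were not removed. The pair of libraries shared 37 barcode sequences, within the range of 14 to 38 between any 2 of the 6 libraries. Ratios are PD over CT, and the range in parentheses after a ratio is its exact conditional binomial 95% interval, which covers counting error only. In such sums, fewer cells of a type and less RNA per cell cannot be told apart.

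Markers of the labelled tissue were present in both libraries. SLC6A3 measured 192 CPM in CT and 169 CPM in PD, against 0.180 CPM in PUT CT and 0.162 CPM in CN CT, and TH had no UMI in any PUT or CN library. The summed level of 10 dopaminergic neuron markers was 1652 CPM in SN CT and 1416 CPM in SN PD, a ratio of 0.857 (0.843 to 0.871). Of the other classes, summed microglia markers had a ratio of 0.642 (0.618 to 0.667), oligodendrocyte markers 0.784 (0.779 to 0.789), astrocyte markers 0.810 (0.782 to 0.839) and mural or fibroblast markers 0.777 (0.673 to 0.896). The sums for border macrophages, T or NK lymphocytes and B or plasma cells were 2.05 (1.88 to 2.24), 1.93 (1.76 to 2.12) and 1.94 (1.79 to 2.10). The difference in the last sum came mostly from IGKC, described below. Without IGKC the sum was 40.2 CPM in CT and 49.8 CPM in PD, a ratio of 1.24 (1.13 to 1.36). PAX5 made up most of that remainder, at 36.7 CPM in CT and 42.2 CPM in PD. With IGKC the log2 ratio of the B or plasma cell sum was 0.95. It was 0.61 in barcodes with 1000 or more genes, 1.90 with every barcode weighted equally and 2.52 in barcodes with fewer than 1000 genes. Red blood cell markers had a summed ratio of 0.182 (0.111 to 0.287), with HBB at 137 UMIs in CT and 13 in PD and ALAS2 at 8 UMIs in CT and 9 in PD. The log2 ratio of the dopaminergic sum lay between -0.24 and 0.058 over all settings tried, and was above 0 only in barcodes with fewer than 1000 genes.

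**Figure D1:**
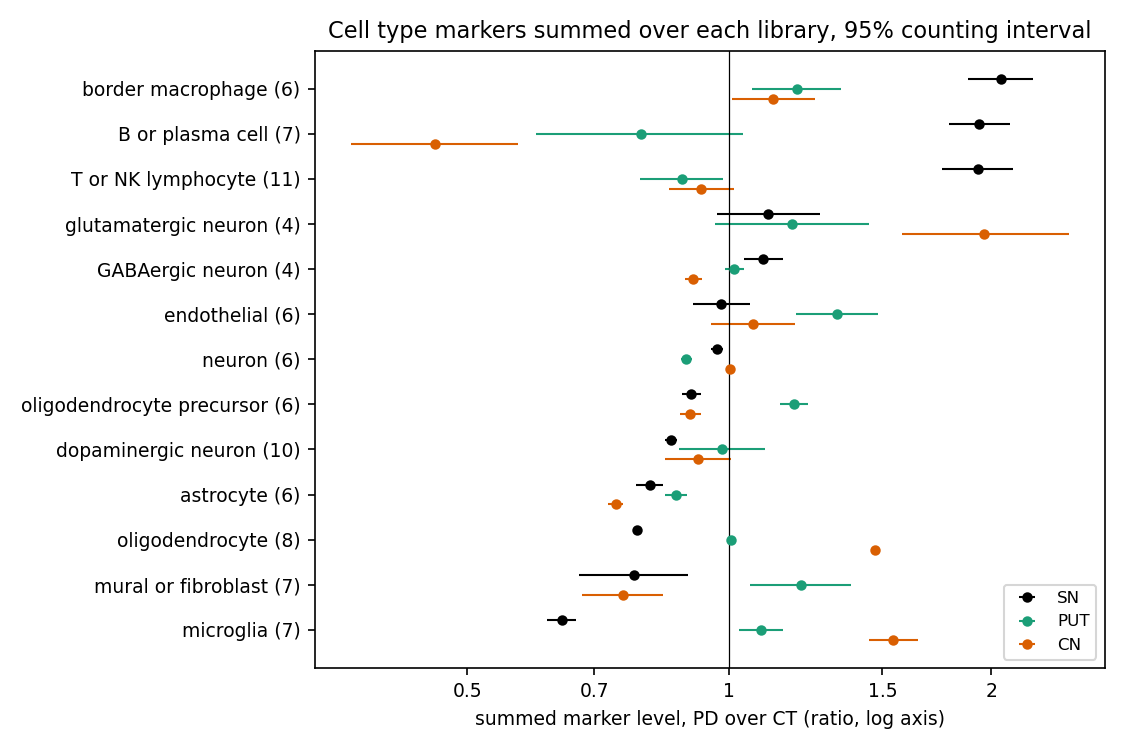
Summed level of each marker class (number of its genes in the annotation in parentheses), PD over CT, on a log axis for SN (black), PUT (green) and CN (orange), with 95% counting intervals. In SN the border macrophage, B or plasma cell and T or NK lymphocyte sums lie near 2 and the microglia sum lies at 0.642.

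Of 14459 genes with 50 or more UMIs over both SN libraries, 1049 (7.25%) were higher and 1176 (8.13%) lower in PD past 1.5-fold. The median log2 ratio over all of them was -0.0026, and the log2 ratio of the middle 90% of genes ran from -0.78 to 0.73. The members of each gene list below are read against these shares. The 14 genes highest and the 14 genes lowest in PD were taken by the bound of the interval that lies nearest to no difference, and they had from 50 to 1028 UMIs over both libraries.

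**Figure D2:**
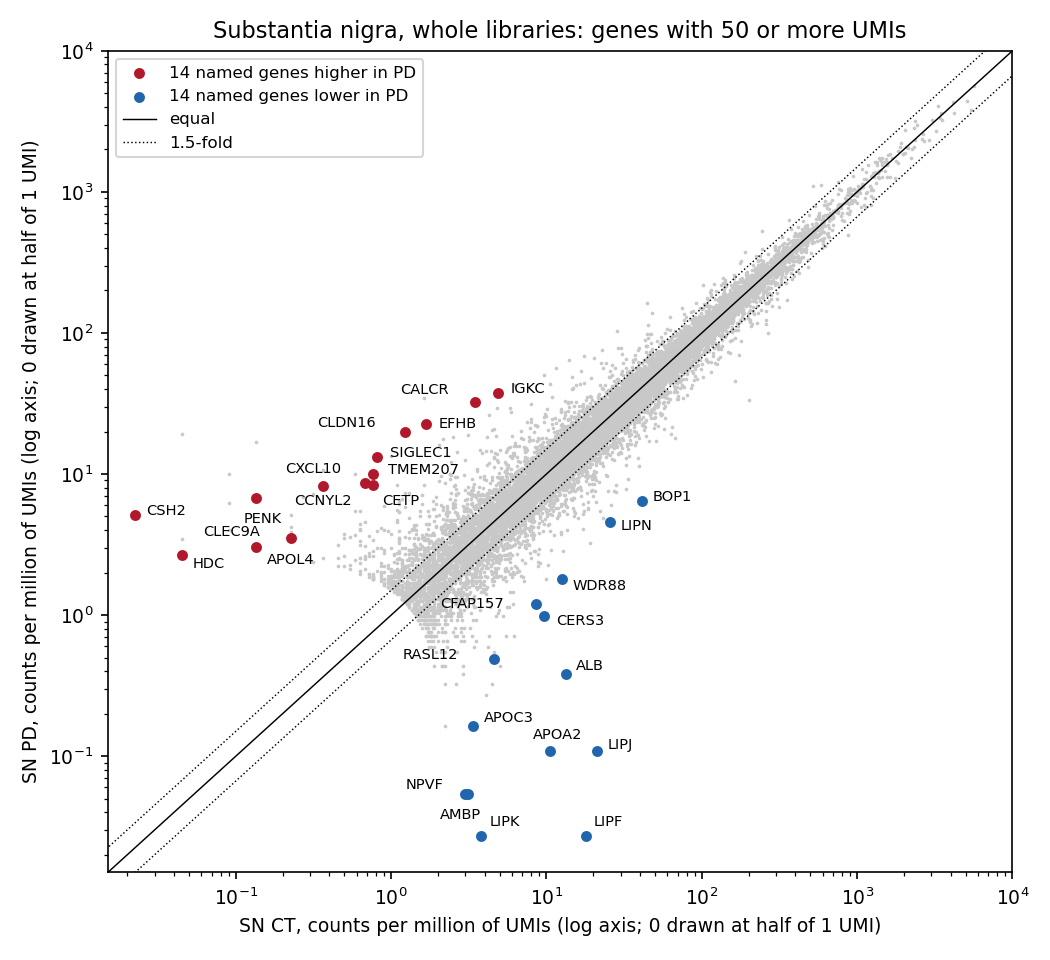
Level of each measured gene in SN CT (x axis) and SN PD (y axis), in CPM on log axes, with the 28 genes at the ends of the ranking named; a level of 0 is drawn at 0.5 of a UMI. Most genes lie within the dotted 1.5-fold lines, while CSH2 lies at 0 in CT and LIPF and LIPK lie at 0 in PD.

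Several of the genes highest in PD belong to immune cells or to the response to interferon. CXCL10, a chemokine that draws activated T cells, had 8 UMIs in CT and 152 in PD, a ratio of 22.9 (11.3 to 53.9). Its UMIs in PD were concentrated, with 108 of 152 in 14 barcodes that held 3 or more. SIGLEC1, a sialic acid-binding lectin of macrophages, measured 0.814 CPM in CT and 13.2 CPM in PD, a ratio of 16.2 (10.1 to 27.9), or 5.42 (2.61 to 12.6) in barcodes without a UMI of an immune cell marker. CLEC9A, a lectin of cross-presenting dendritic cells, had 5 UMIs in CT and 65 in PD, a ratio of 15.6 (6.37 to 49.8). IGKC, the constant region of the immunoglobulin κ chain, measured 4.88 CPM in CT and 37.5 CPM in PD, a ratio of 7.68 (6.27 to 9.50). An IGKC UMI was found in 1.03% (0.844 to 1.25, exact Clopper-Pearson) of CT barcodes and 7.10% (6.57 to 7.67) of PD barcodes. In barcodes with 3 or more SLC6A3 UMIs, a class that should lack it, the share in PD was 5.93% of 253 barcodes with a median of 14730 UMIs, against 7.14% of the other barcodes with a median of 1156. In CT it was 0 of 353 such barcodes, which by the floor of 3 counts allows a share of up to 0.850%. The PD share of IGKC is therefore not read as a share of cells that express it. Background RNA and doublets, which were not removed, cannot be told apart here.

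Others of the genes highest in PD belong to varied gene families. CSH2, a gene of the growth hormone and placental lactogen cluster, had no UMI in CT and 95 in PD, at least 38.1-fold higher against a floor of 3 UMIs in the CT library. These came from 94 barcodes with at most 2 UMIs each, and the RefSeq order places related genes (CSH3, CSH4 and GHV) beside it, among which reads may be split. A CSH2 UMI was found in 10.7% of the PD barcodes with 3 or more SLC6A3 UMIs and in 0.812% of the others, which were far shallower, at the median UMI counts given above for IGKC. CLDN16, a claudin of tight junctions, measured 1.22 CPM in CT and 20.01 CPM in PD, a ratio of 16.4 (11.1 to 25.2), and TMEM207 measured 0.768 CPM in CT and 9.95 CPM in PD, a ratio of 12.9 (7.87 to 22.7). The log2 ratio of CLDN16, 4.01 over all barcodes, was 3.36 in barcodes with 1000 or more genes and 5.71 in smaller ones, and that of TMEM207, 3.66, was 2.78 and 5.44. EFHB had a ratio of 13.6 (9.67 to 19.5), with a UMI in 36 CT and 376 PD barcodes, and CCNYL2, a cyclin Y-like gene, one of 12.8 (7.55 to 23.5). CALCR, the calcitonin receptor, measured 3.48 CPM in CT and 32.4 CPM in PD, a ratio of 9.31 (7.33 to 11.96), and 90.8% of its PD UMIs lay in the 1% of barcodes that held most of them. CETP, the plasma cholesteryl ester transfer protein, had 17 UMIs in CT and 155 in PD, a ratio of 11.0 (6.63 to 19.3). APOL4, of the apolipoprotein L family, had 3 UMIs in CT and 56 in PD, each in a barcode of its own in PD, a ratio of 22.5 (7.30 to 112).

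PENK and HDC were high in few PD barcodes. PENK, the precursor of the enkephalins, had 3 UMIs in CT and 125 in PD, a ratio of 50.1 (16.8 to 246). In PD, 9 barcodes with 3 or more PENK UMIs and a median of 7541 UMIs in all held 77 of them. The same barcodes held 17 of the library's 27 UMIs of ADORA2A and 35 of its 66 of HPCA. Their level of PDE10A, a phosphodiesterase abundant in striatal projection neurons, was 2783 CPM against 80.6 CPM in the whole library, and that of PPP1R1B 483 against 11.0 CPM. ADORA2A, PENK and PPP1R1B are known from the projection neurons of the striatum, and these genes were chosen after the PENK barcodes had been seen. No SN CT barcode held 3 PENK UMIs, and what the 9 barcodes are was not tested. HDC, which makes histamine from histidine, had 1 UMI in CT and 49 in PD, a ratio of 58.9 (10.1 to 2375), with 31 of the PD UMIs in 3 barcodes. None of these barcodes held a UMI of the mast cell genes KIT, CPA3, HPGDS, GATA2 or MS4A2.

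Among the genes lowest in PD, 4 were acid lipases that follow each other in the RefSeq gene order (assembly T2T-MFA8v1.1 of the cynomolgus macaque), LIPJ, LIPF, LIPK and LIPN. LIPF, the gastric lipase, had 396 UMIs in CT and none in PD, at least 109.7-fold lower against a floor of 3 UMIs in the PD library. LIPK had 84 and none, at least 23.3-fold lower. LIPJ had 468 UMIs in CT and 2 in PD, a ratio of 0.00514 (0.000621 to 0.0187), and LIPN 571 UMIs in CT and 84 in PD, a ratio of 0.177 (0.139 to 0.223). In CT these UMIs were spread thinly, with at most 4 of LIPF and 5 of LIPJ in a barcode and a LIPF UMI in 330 of 9861 barcodes. Few of them lay in barcodes without a UMI of a microglia, border macrophage, lymphocyte or plasma cell marker, a set added after seeing the data. That set held 20 of the LIPF and 33 of the LIPJ UMIs of CT, and LIPN there had 79 UMIs in CT and 38 in PD, a ratio of 0.546 (0.361 to 0.813). The part of these cells in the lipase result was not tested. RNLS, the next gene beside LIPJ, measured 284 CPM in CT and 154 CPM in PD, a ratio of 0.543 (0.519 to 0.567), while LIPM beyond LIPN had 8 UMIs in CT and 4 in PD, a ratio of 0.601 (0.133 to 2.24). The lipases resemble each other in sequence, so the authors' counting could split reads among them.

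Of the 28 genes, 25 matched the RefSeq order, and 98 other genes of the files lay within 3 places of them. Of these neighbours 67 were measured, of which 7 were higher and 5 lower past 1.5-fold, where 7.25% and 8.13% of all genes were. The counts are not read as a result about neighbours. Those described here were chosen after the values had been seen. TMEM207 and CLDN16 are adjacent in the RefSeq order, followed by CLDN1 with a ratio of 2.94 (2.25 to 3.87), P3H2 with 2.16 (2.09 to 2.23) and, in the other direction, TP63 with 0.171 (0.128 to 0.225), whereas IL1RAP on the other side of TMEM207 had 1.02 (0.949 to 1.09). P3H2, a collagen prolyl hydroxylase, was abundant enough to give 5374 UMIs in CT and 9638 in PD. VPS50, beside CALCR, had 5710 UMIs in CT and 2267 in PD, a ratio of 0.478 (0.455 to 0.501), opposite to CALCR. CETP lies beside NLRC5, described below, and its other neighbour HERPUD1 had a ratio of 0.987 (0.887 to 1.10). Beside CLEC9A, the lectin genes CLEC1A and CLEC7A had ratios of 3.59 (2.66 to 4.90) and 2.27 (1.97 to 2.60), and CLEC12A, further on, one of 0.938 (0.763 to 1.15). CXCL11 and CXCL9, which flank CXCL10 and are also drawn out by interferon-γ, had 0 UMIs in CT and 11 and 6 in PD, below the 50 UMI minimum. Neighbours were named from the gene order alone, without coordinates, since the genome build behind the counts is not settled here.

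Genes of plasma proteins that the liver makes formed another group of the lowest. ALB, albumin, measured 13.3 CPM in CT and 0.381 CPM in PD, a ratio of 0.0285 (0.0114 to 0.0595). APOA2, an apolipoprotein of high-density lipoprotein, had 233 UMIs in CT and 2 in PD, a ratio of 0.0103 (0.00124 to 0.0377). APOC3, an inhibitor of lipoprotein lipase, had a ratio of 0.0481 (0.00970 to 0.146) and AMBP, the precursor of α-1-microglobulin and bikunin, one of 0.0182 (0.000455 to 0.105). In SN CT, 15 barcodes with 3 or more ALB UMIs, with a median of 1141 UMIs in all, held 185 of 295 ALB UMIs, 122 of 233 of APOA2, 49 of 75 of APOC3 and 38 of 66 of AMBP. They also held 61 of 129 UMIs of APOC2 and 11 of 17 of FGB, the fibrinogen β chain, genes chosen after these barcodes had been seen. No SN PD barcode held 3 ALB UMIs. More than 50% of the CT UMIs of these 4 genes thus lay in 15 of 9861 CT barcodes.

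The remaining genes of the lowest group had at most 4 UMIs in any CT barcode. BOP1, a factor of ribosome assembly, measured 41.1 CPM in CT and 6.47 CPM in PD, a ratio of 0.157 (0.129 to 0.191), and a BOP1 UMI was found in 815 CT and 112 PD barcodes. WDR88, a WD repeat gene, had a ratio of 0.142 (0.0957 to 0.204), CERS3, a ceramide synthase, 0.102 (0.0591 to 0.165), and CFAP157, a gene of cilia and flagella, 0.139 (0.0853 to 0.217). RASL12, of the Ras-like family, had 102 UMIs in CT and 9 in PD, a ratio of 0.106 (0.0472 to 0.210). NPVF, the precursor of RFamide-related peptides, had 69 UMIs in CT and 1 in PD, in CT each in a barcode of its own. Its ratio was 0.0174 (0.000435 to 0.100).

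The same 28 genes were measured less often in the striatal libraries, where 8 of the 14 low genes and 5 (PUT) or 7 (CN) of the 14 high genes had 50 or more UMIs. The 8 low genes measured in each region, 7 of them in common, with NPVF in PUT and ALB in CN besides, were lower past 1.5-fold there too. Of all genes, 8.48% were lower in PUT and 13.2% in CN. LIPF, LIPJ, CERS3 and CFAP157 and, in PUT, NPVF and WDR88 met the minimum through their CT UMIs, which favoured a lower value. ALB in CN met it with 46 UMIs in CT and 21 in PD. Of the low genes under 50 UMIs in PUT, ALB had 4 in CT and 17 in PD, a ratio of 6.09 (1.99 to 24.9). APOA2, RASL12 and AMBP had 1.08 (0.464 to 2.42), 1.91 (0.582 to 6.69) and 0.860 (0.134 to 4.42) in PUT. APOC3 had 0 UMIs in PUT CT and 2 in PUT PD, and LIPK had 19 and 1. In CN the low genes under 50 UMIs all had ratios below 1. LIPF had 108 and 90 UMIs in PUT CT and CN CT and none in either PD library. WDR88 measured 12.7 CPM in PUT CT and 1.25 CPM in PUT PD, and 16.4 and 1.58 CPM in CN. Of the high genes, CLDN16, EFHB and CCNYL2 were higher past 1.5-fold in all 3 regions, with EFHB at a ratio of 28.6 (18.7 to 46.1) in PUT and 9.63 (7.39 to 12.8) in CN. In PUT these genes met the minimum through their PD UMIs, which favoured a higher value, and so did CLDN16 in CN. CLDN16 had 18 UMIs in PUT CT and 84 in PUT PD. The libraries of the 3 regions may come from the same animals, which the labels do not say. TMEM207 and CXCL10 had 50 or more UMIs only in CN and were higher there too. CXCL10 met that minimum through its 48 UMIs in CN PD, against 3 in CN CT, and TMEM207 through its 79 in CN PD, against 34 in CN CT. SIGLEC1 was lower past 1.5-fold in PUT and CN, at 4.48 CPM in PUT CT and 2.11 CPM in PUT PD, and PENK, abundant in the striatum, was lower in PUT and within 1.5-fold in CN. IGKC had ratios of 1.14 (0.588 to 2.16) in PUT and 1.12 (0.498 to 2.60) in CN, with under 50 UMIs in both. Differences between regions were not tested.

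Genes that load peptides on MHC class I were higher in SN PD for 7 of 14 measured members and lower for 0, against 7.25% and 8.13% of all genes, with a median log2 ratio of 0.48. NLRC5, which switches on MHC class I genes, measured 11.4 CPM in CT and 56.0 CPM in PD, a ratio of 4.90 (4.27 to 5.65). TAP1, a subunit of the transporter that carries peptides into the endoplasmic reticulum, measured 2.49 CPM in CT and 18.4 CPM in PD, a ratio of 7.39 (5.55 to 10.0). PSMB8, a catalytic subunit of the immunoproteasome, had a ratio of 7.05 (3.97 to 13.5), whereas PSMB9 and PSMB10, which belong to the same particle, had 0.935 (0.785 to 1.11) and 1.17 (0.943 to 1.46). HLA-E, a nonclassical heavy chain, measured 22.6 CPM in CT and 61.4 CPM in PD, a ratio of 2.72 (2.45 to 3.03), and HLA-F had 4.18 (3.06 to 5.78). B2M, the light chain of all class I molecules, measured 10.9 CPM in CT and 24.5 CPM in PD, a ratio of 2.25 (1.92 to 2.64). CALR, a chaperone of class I assembly, was the member just past the threshold, at 1.55 (1.34 to 1.80), and ERAP1, an aminopeptidase that trims peptides, the nearest within it, at 1.25 (1.03 to 1.52). HLA genes are near-identical copies in part, so the split of reads between HLA-E and HLA-F is uncertain.

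MHC class II genes showed the highest median of the lists with 3 or more measured members. Of 7 measured members, 6 were higher and 0 lower past 1.5-fold, with a median log2 ratio of 1.37. CD74, the invariant chain that guards the class II groove, measured 22.9 CPM in CT and 75.6 CPM in PD, a ratio of 3.30 (2.98 to 3.66). CIITA, the master transactivator of class II genes, measured 8.68 CPM in CT and 21.9 CPM in PD, a ratio of 2.52 (2.12 to 3.01). The chains HLA-DRA, HLA-DPA1 and HLA-DPB1 had ratios of 2.59 (2.20 to 3.05), 4.72 (3.88 to 5.77) and 2.62 (2.07 to 3.32), and HLA-DMA, which edits the bound peptide, 2.32 (1.66 to 3.27). CTSS, the protease that cuts the invariant chain, was the member that was not higher, at 55.1 CPM in CT and 46.0 CPM in PD. A UMI of at least 1 member of this list, CTSS included, was found in 17.1% of CT and 25.9% of PD barcodes. When barcodes were thinned to 1000 UMIs and shallower ones left out (3192 in CT and 3122 in PD), the shares were 9.61% and 16.5%. The list summed to 111 CPM in CT and 218 CPM in PD, of which CTSS was 55.1 and 46.0 CPM. The shares are thus not those of class II chains alone. CD74 was also found in 5.67% of CT and 11.5% of PD barcodes with 3 or more SLC6A3 UMIs, against 4.53% and 11.9% of all others. The barcodes with SLC6A3 were far deeper, with medians of 14415 UMIs in CT and 14730 in PD, against 1222.5 and 1156. Like shares are therefore not like levels, and they are not read as expression by a cell type.

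**Figure D3:**
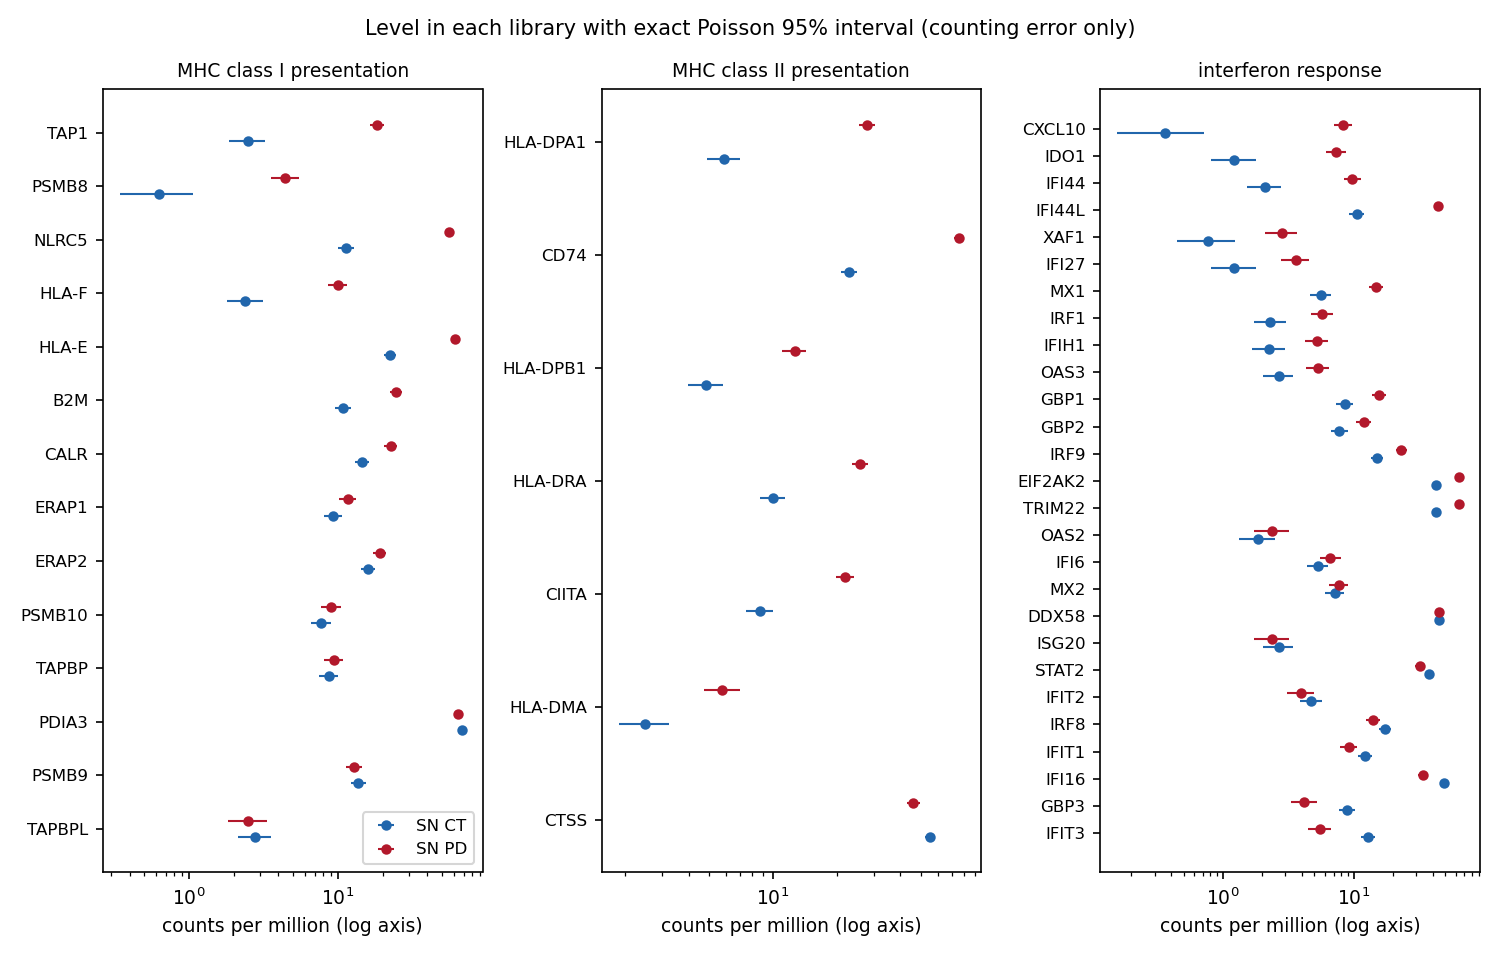
Level of measured members of the MHC class I, MHC class II and interferon lists in SN CT (blue) and SN PD (red), in CPM on log axes with exact Poisson 95% intervals. Intervals of the libraries are apart for TAP1, NLRC5, CD74 and IFI44L, overlap for PSMB9 and MX2, and are apart in the opposite order for IFIT3.

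The interferon list was mixed in direction. Of 28 measured members, 15 were higher and 2 lower past 1.5-fold, with a median log2 ratio of 0.59. Besides CXCL10, the largest ratios were those of IDO1, which degrades tryptophan, with 1.22 CPM in CT and 7.34 CPM in PD and a ratio of 6.01 (3.96 to 9.46), and of IFI44 and IFI44L, at 4.68 (3.37 to 6.62) and 4.15 (3.58 to 4.82). IRF1, a transcription factor that interferon-γ induces, had 51 UMIs in CT and 106 in PD, a ratio of 2.50 (1.77 to 3.56), and the antiviral GTPase MX1 had 2.66 (2.14 to 3.31). The RNA sensor IFIH1 and the guanylate-binding protein GBP1 had 2.31 (1.62 to 3.32) and 1.84 (1.52 to 2.22). By contrast, IFIT3 measured 12.9 CPM in CT and 5.49 CPM in PD, a ratio of 0.426 (0.336 to 0.537), GBP3 had 0.473 (0.358 to 0.618) and IFI16, a DNA sensor, 0.683 (0.617 to 0.754), the last within 1.5-fold. STAT2, which acts downstream of type I interferon, measured 37.7 CPM in CT and 32.1 CPM in PD, a ratio of 0.851 (0.764 to 0.947). IFNG itself had 1 UMI in CT and 3 in PD, too few to compare.

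The differences were also present in barcodes without a UMI of any microglia, border macrophage, lymphocyte or plasma cell marker other than IGKC (6517 in CT and 5841 in PD), a set chosen after the data had been seen. In that set NLRC5 had a ratio of 9.59 (7.36 to 12.7), HLA-E 3.97 (3.32 to 4.78), TAP1 7.94 (5.29 to 12.4) and CD74 2.80 (2.34 to 3.36). CIITA had 1.84 (1.16 to 2.96). The ratios of NLRC5 and HLA-E were larger there than in the whole library and those of CD74 and CIITA smaller. The median log2 ratio there was 0.62 for the class I list, 0.98 for class II and 0.62 for interferon. In barcodes with fewer than 1000 genes these medians were 0.65, 1.51 and 0.55, and in larger ones 0.40, 1.23 and 0.54. In those smaller barcodes NLRC5 had 6.49 (5.13 to 8.29), and in barcodes with 1000 or more genes 3.97 (3.34 to 4.75). An NLRC5 UMI was found in 12.6% of PD barcodes with 3 or more SLC6A3 UMIs and 9.60% of the others. In CT these shares were 2.55% and 2.23%. The barcodes with SLC6A3 were far deeper, at the medians given above for CD74, so the shares do not compare levels. Barcodes without an immune marker UMI may still hold RNA of immune cells, as many barcodes are shallow. Their ratios are therefore not read as expression outside immune cells, which was not tested.

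**Figure D4:**
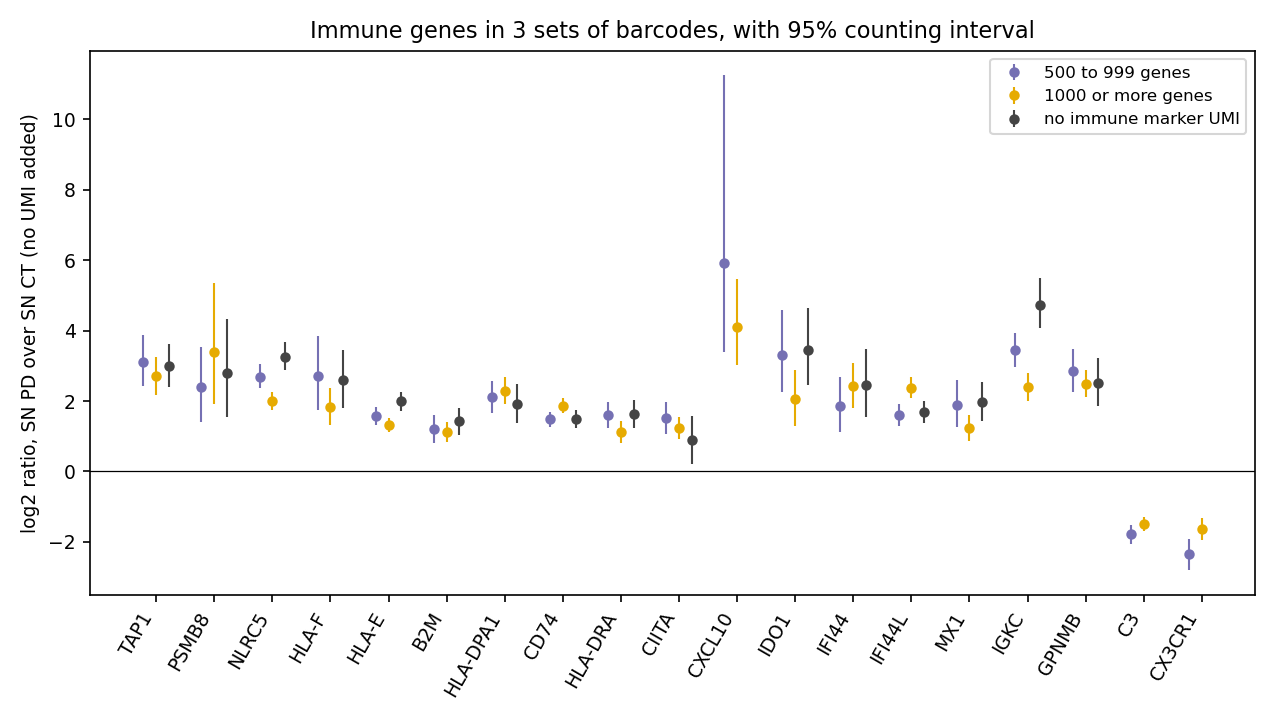
log2 ratio of 19 immune genes, SN PD over SN CT, in barcodes with fewer than 1000 genes (purple), with 1000 or more genes (yellow) and without an immune marker UMI (black), with 95% counting intervals. The first 17 genes lie above 0 in each set drawn, while C3 and CX3CR1, which are markers and so have no black point, lie below 0, and CXCL10 has no black point because CT had no UMI.

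Lymphocyte genes had low counts and were mostly higher in PD, beside a T or NK marker sum of 32.3 CPM in CT and 62.2 CPM in PD, whose part in the result was not tested. That sum itself includes THEMIS and GZMB, so it is not a separate measure from them. Of 13 measured members of the lymphocyte list, 10 were higher and 0 lower past 1.5-fold, with a median log2 ratio of 1.05. THEMIS, a regulator of T cell receptor signalling, had 24 UMIs in CT and 153 in PD, a ratio of 7.67 (4.97 to 12.3). CD4, the coreceptor of helper T cells that macrophages also carry, measured 4.47 CPM in CT and 20.7 CPM in PD, a ratio of 4.62 (3.69 to 5.82), and CD3G, a chain of the T cell receptor complex, had 14 UMIs in CT and 47 in PD, a ratio of 4.04 (2.19 to 7.94). The granule gene GZMB had 1.13 (0.852 to 1.49) and the chemokine CCL5 0.703 (0.523 to 0.940). CD8A, with 22 UMIs in CT and 25 in PD, was below the UMI minimum. Among B lineage genes, 4 of 8 were higher and 0 lower, with a median log2 ratio of 0.86, or 0.14 over those with at least 200 UMIs. JCHAIN, which links polymeric antibodies, had 39 UMIs in CT and 93 in PD, a ratio of 2.87 (1.95 to 4.28), and the plasma cell transcription factors PRDM1 and IRF4 had 3.03 (2.19 to 4.23) and 3.10 (2.03 to 4.86). PAX5 and CD22, listed here as B lineage genes, had 1.15 (1.04 to 1.27) and 1.11 (1.04 to 1.18), and MS4A1 had 21 UMIs in CT and 19 in PD. CD79A and CD79B had 5 and 3 UMIs in CT and 2 and 4 in PD. PAX5 had 811 UMIs in CT, 85.2% of them in 1% of barcodes, and 776 in PD. It measured 36.7 CPM in SN CT, 0.902 CPM in PUT CT and 1.66 CPM in CN CT. PAX5 is therefore not read as a measure of B cells, and which cells hold it was not tested.

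Microglial and macrophage genes differed in direction. Of the homeostatic microglia list, 0 of 9 measured members were higher and 2 lower. CX3CR1, the fractalkine receptor, measured 33.6 CPM in CT and 9.19 CPM in PD, a ratio of 0.274 (0.230 to 0.324), and SELPLG had 0.570 (0.426 to 0.758). SALL1, a transcription factor of microglial identity, had 0.767 (0.680 to 0.864), CSF1R, the receptor that keeps microglia alive, 0.894 (0.806 to 0.991) and MERTK, a receptor for dying cells, 1.20 (1.11 to 1.30). Of the disease-associated microglia list, 4 of 16 were higher and 2 lower. GPNMB, a glycoprotein of phagocytes, measured 4.29 CPM in CT and 26.3 CPM in PD, a ratio of 6.12 (4.90 to 7.70), and CLEC7A, a receptor for β-glucan, 14.4 CPM in CT and 32.6 CPM in PD, a ratio of 2.27 (1.97 to 2.60). The lower members were ITGAX, an integrin chain, and TREM2, a lipid receptor of microglia, at 0.433 (0.344 to 0.541) and 0.663 (0.584 to 0.753). SPP1, within 1.5-fold, had 0.679 (0.645 to 0.715), and APOE had 0.969 (0.901 to 1.04). Among border macrophage markers, F13A1, STAB1, CD163L1 and CD163 had ratios of 4.50 (3.61 to 5.66), 3.68 (2.87 to 4.76), 2.54 (2.06 to 3.13) and 2.24 (1.80 to 2.78), while MRC1 had 0.758 (0.630 to 0.910) and LYVE1 0.718 (0.464 to 1.10).

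Complement genes split by direction. Of 13 measured members, 5 were higher and 4 lower past 1.5-fold, with a median log2 ratio of 0.24. The chains of C1q, C1QA, C1QB and C1QC, which start the classical pathway, had ratios of 2.03 (1.76 to 2.35), 1.69 (1.44 to 1.98) and 2.02 (1.66 to 2.47). C5 measured 6.01 CPM in CT and 13.3 CPM in PD, a ratio of 2.21 (1.78 to 2.75), and CD55, which dissolves convertases, 47.0 CPM in CT and 84.4 CPM in PD, a ratio of 1.80 (1.66 to 1.95). C3, the central component, measured 64.2 CPM in CT and 21.5 CPM in PD, a ratio of 0.335 (0.299 to 0.375). The receptors for its fragments CR1 and ITGAX had 0.485 (0.427 to 0.551) and 0.433 (0.344 to 0.541), and ITGAM, within 1.5-fold, 0.701 (0.638 to 0.770). Of 17 measured cytokine and cytokine receptor genes 2 were higher and 2 lower. IL6 measured 15.1 CPM in CT and 5.06 CPM in PD, a ratio of 0.336 (0.264 to 0.424), and TNF 3.80 CPM in CT and 1.69 CPM in PD, a ratio of 0.444 (0.284 to 0.677). IL1B and NLRP3, of the inflammasome pathway, had 0.873 (0.581 to 1.30) and 0.917 (0.760 to 1.11), and CASP1, its protease, 1.84 (1.32 to 2.60). The higher and lower members of these lists stood beside a microglia marker sum of 339 CPM in CT and 218 CPM in PD and a border macrophage sum of 37.4 and 76.7 CPM, whose part in the result was not tested. The microglia sum itself includes C3 and ITGAM, so it is not a separate measure from them.

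Dopamine genes differed little as a group. Of 22 measured members, 2 were higher and 2 lower past 1.5-fold, with a median log2 ratio of -0.067. TH measured 14.3 CPM in CT and 12.8 CPM in PD, a ratio of 0.895 (0.753 to 1.06), SLC6A3 had 0.880 (0.840 to 0.922), SLC18A2 1.03 (0.989 to 1.08) and DDC 1.03 (0.965 to 1.10). ALDH1A1, an aldehyde dehydrogenase of ventral nigral dopamine neurons, measured 115 CPM in CT and 61.9 CPM in PD, a ratio of 0.537 (0.501 to 0.576). NR4A2, a transcription factor that maintains dopamine neurons, measured 21.8 CPM in CT and 13.97 CPM in PD, a ratio of 0.641 (0.549 to 0.748). KCNJ6, a potassium channel subunit of these neurons, had 0.838 (0.821 to 0.855), and the transcription factors PITX3, EN1 and LMX1B had 0.845 (0.640 to 1.11), 0.727 (0.510 to 1.03) and 0.853 (0.772 to 0.942). CALB1, a calcium buffer of dorsal tier neurons, had 74 UMIs in CT and 110 in PD, a ratio of 1.79 (1.32 to 2.43). GCH1, which makes the cofactor of TH, measured 18.7 CPM in CT and 29.1 CPM in PD, a ratio of 1.56 (1.37 to 1.77). In barcodes with fewer than 1000 genes, which held 159 and 113 ALDH1A1 UMIs, its ratio was 0.782 (0.609 to 1.002), and in larger barcodes 0.534 (0.496 to 0.575).

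Of 24 measured genes linked to inherited or sporadic Parkinson's disease, 1 was higher past 1.5-fold, GPNMB, and 0 were lower. TMEM175, a lysosomal potassium channel, had the smallest ratio of the list, 0.675 (0.606 to 0.750), followed by RAB39B at 0.692 (0.526 to 0.905) and PINK1, a kinase of mitophagy, at 0.812 (0.691 to 0.955). VPS35, of the retromer, had 1.24 (1.11 to 1.40), and VPS13C, a lipid transfer protein, 1.22 (1.19 to 1.25).

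Of the enzymes of poly(ADP-ribose) metabolism, 16 had a ratio above 1 and 2 below, most of them within 1.5-fold. Of 18 measured members, 4 were higher and 0 lower past 1.5-fold, with a median log2 ratio of 0.25. PARP1, which makes most of the polymer, measured 27.9 CPM in CT and 28.2 CPM in PD, a ratio of 1.01 (0.895 to 1.13). PARG, which degrades it, measured 117 CPM in CT and 125 CPM in PD, a ratio of 1.06 (1.01 to 1.13). The members past 1.5-fold were PARP9, PARP10, PARP12 and PARP14, which are known as interferon-induced, at 1.61 (1.41 to 1.84), 1.83 (1.33 to 2.53), 1.96 (1.61 to 2.39) and 1.76 (1.47 to 2.11). The tankyrases TNKS and TNKS2 had 1.19 (1.16 to 1.22) and 1.20 (1.10 to 1.30). Of 13 NAD and axon survival genes 1 was higher and 1 lower. CD38, an NAD hydrolase, measured 12.8 CPM in CT and 5.49 CPM in PD, a ratio of 0.428 (0.337 to 0.539), and NNMT, a methyltransferase of nicotinamide, had 27 UMIs in CT and 37 in PD, a ratio of 1.65 (0.977 to 2.81). NAMPT, the rate-limiting enzyme of NAD salvage, had 1.36 (1.20 to 1.54), and SARM1, which destroys NAD in injured axons, 0.970 (0.859 to 1.10).

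**Figure D5:**
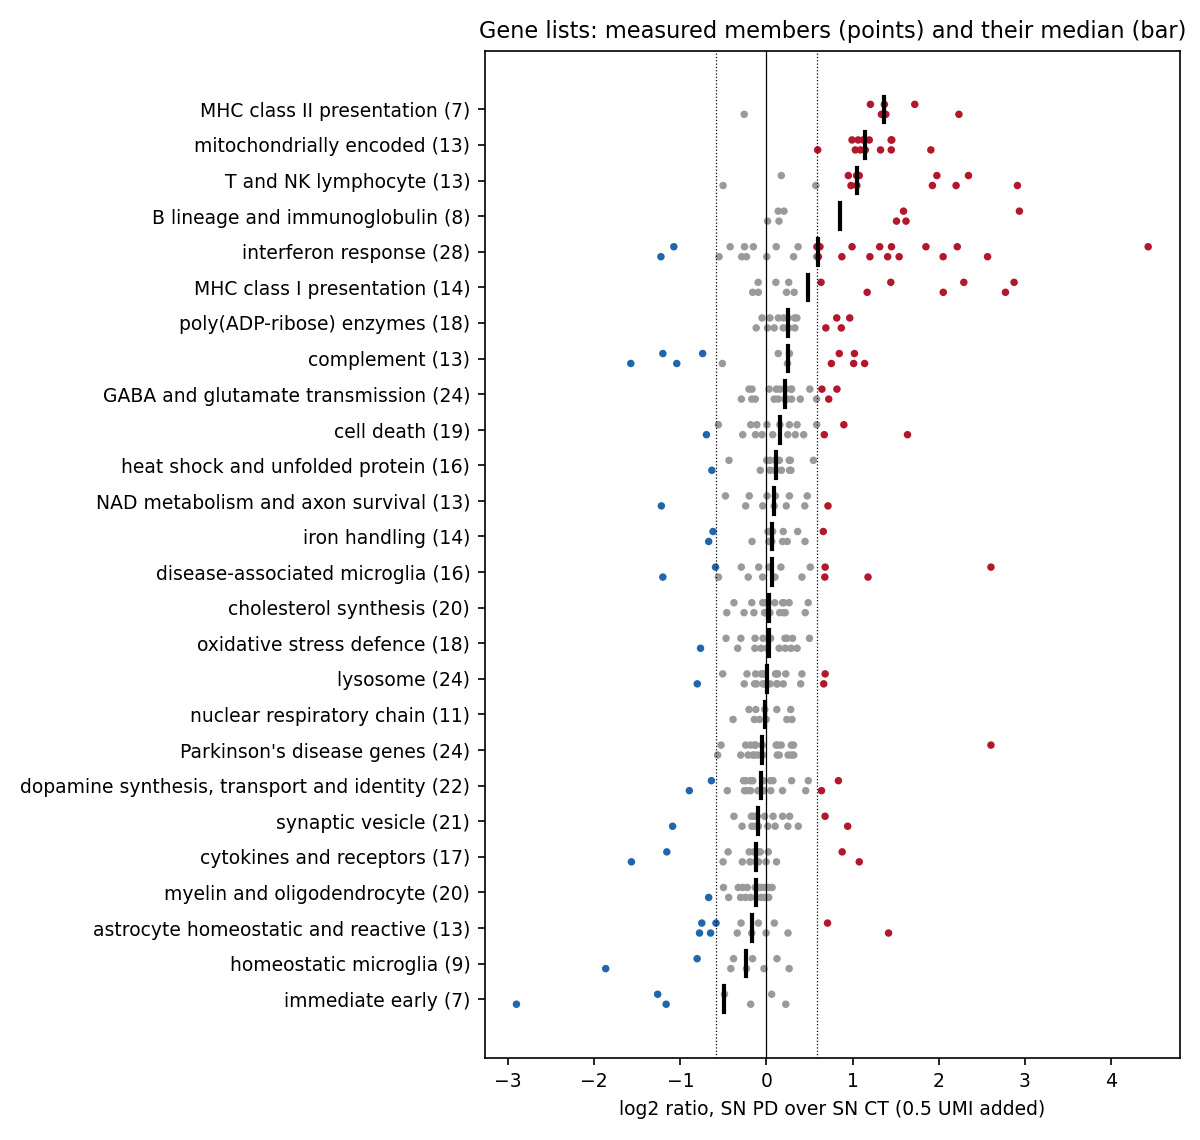
log2 ratio of each measured member (points) and the list's median (bar) for 26 gene lists in SN, PD over CT, with the number measured in parentheses; red and blue points lie past 1.5-fold (dotted lines). MHC class II, mitochondrially encoded and lymphocyte lists have medians of 1.37, 1.15 and 1.05, and the immediate early list one of -0.49.

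Of the myelin and oligodendrocyte genes, 17 had a ratio below 1 and 3 above, nearly all within 1.5-fold. Of 20 measured members, 0 were higher and 1 lower past 1.5-fold, with a median log2 ratio of -0.13. MBP, a main protein of the myelin sheath, measured 5415 CPM in CT and 3830.2 CPM in PD, a ratio of 0.707 (0.701 to 0.714), and MOBP had 0.812 (0.798 to 0.825). TF, the transferrin that oligodendrocytes make, was the member past the threshold, at 423 CPM in CT and 265 CPM in PD. MOG and CLDN11 had 0.983 (0.956 to 1.01) and 1.05 (1.02 to 1.07). Cholesterol synthesis genes had 0 members higher and 0 lower of 20 in SN, with a median of 0.029, and medians of -0.55 in PUT and -0.51 in CN. Of 13 astrocyte genes 2 were higher and 4 lower. VIM, an intermediate filament, had 29 UMIs in CT and 65 in PD, a ratio of 2.70 (1.72 to 4.33), and the adhesion receptor CD44 had 1.64 (1.40 to 1.91). ALDH1L1, S100B and AQP4, the water channel, had 0.581 (0.432 to 0.775), 0.594 (0.558 to 0.632) and 0.637 (0.531 to 0.762), and GFAP had 0.936 (0.849 to 1.03).

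All 13 mitochondrially encoded genes were higher past 1.5-fold in SN PD, with a median log2 ratio of 1.15. CYTB, of complex III, measured 28.7 CPM in CT and 78.5 CPM in PD, a ratio of 2.73 (2.49 to 3.00), and COX3, of complex IV, 45.3 CPM in CT and 113 CPM in PD, a ratio of 2.50 (2.32 to 2.70). ND4, of complex I, had 2.74 (2.40 to 3.14) and ATP8, the least, 1.52 (0.847 to 2.74). Such transcripts were 0.0177% of UMIs in SN CT and 0.0431% in SN PD, and the highest COX3 count in a barcode was 21 in CT and 158 in PD. Without the 4 PD barcodes over 5% mitochondrial UMIs the median was 1.002. In PUT 8 of 12 were lower past 1.5-fold and 0 higher. Nuclear genes of the respiratory chain had no member past 1.5-fold among 11 in SN, with NDUFS4 at 1.23 (1.16 to 1.30) and NDUFB9 at 0.764 (0.695 to 0.839).

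Stress and degradation genes had few members past 1.5-fold. Of 16 heat shock and unfolded protein genes 0 were higher and 1 lower, BAG3, a cochaperone, at 0.643 (0.489 to 0.840). HSP90B1, the chaperone of the endoplasmic reticulum, had 1.46 (1.30 to 1.63) and HSP90AA1 0.740 (0.714 to 0.766). Of 24 lysosomal genes 2 were higher, the protease CTSD at 1.60 (1.45 to 1.78) and the proton pump subunit ATP6V1B2 at 1.59 (1.44 to 1.75), and 1 was lower, GLA at 0.571 (0.428 to 0.756). NPC1, a cholesterol exporter of the lysosome, had 0.703 (0.665 to 0.743), within 1.5-fold. Of 14 iron genes SLC40A1, the iron exporter ferroportin, was higher at 1.58 (1.36 to 1.84), and TF and STEAP3 were lower, the latter at 0.648 (0.459 to 0.905). NQO1, a quinone reductase, was the member past 1.5-fold of 18 oxidative stress genes, at 11.2 CPM in CT and 6.58 CPM in PD.

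Neuronal genes other than dopaminergic ones were mostly within 1.5-fold. Of 21 synaptic vesicle genes 2 were higher, SYN1 at 1.92 (1.73 to 2.14) and SYN3 at 1.60 (1.52 to 1.68), and 1 was lower, CPLX2, a regulator of vesicle fusion, at 0.469 (0.390 to 0.561). Of the genes of GABA and glutamate transmission, with 24 measured members, 3 were higher and 0 lower past 1.5-fold, with a median log2 ratio of 0.22. GRIN2A, a subunit of the NMDA receptor, measured 103 CPM in CT and 161 CPM in PD, a ratio of 1.56 (1.48 to 1.65), and GAD2, which makes GABA, had 1.496 (1.36 to 1.65), just within the threshold. The vesicular glutamate transporters SLC17A6 and SLC17A7 had 36 UMIs in CT and 53 in PD, and 21 UMIs in CT and 29 in PD. Of 19 cell death genes 3 were higher and 1 lower. FAS, a death receptor, had 43 UMIs in CT and 112 in PD, a ratio of 3.13 (2.19 to 4.56), and the survival gene BCL2 had 1.59 (1.52 to 1.66), while BAK1, a pore-forming effector, had 0.615 (0.454 to 0.826).

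Immediate early genes, which neurons switch on within minutes of activity, were low in both libraries. Of 7 measured members, 0 were higher and 3 lower past 1.5-fold, with a median log2 ratio of -0.49. NPAS4 had 58 UMIs in CT and 6 in PD, a ratio of 0.124 (0.0439 to 0.288), and NR4A1 and NR4A3 had 0.443 (0.313 to 0.619) and 0.413 (0.287 to 0.587). FOS had 83 UMIs in CT and 49 in PD, a ratio of 0.710 (0.488 to 1.02), and EGR1 34 UMIs in CT and 33 in PD. With every barcode weighted equally the median of the list was -0.10, and in barcodes with fewer than 1000 genes 0.058. In barcodes with 1000 or more genes it was -0.84, with 0 higher and 4 lower of 7.

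In the striatal libraries the immune lists had other medians. The median log2 ratio of the MHC class I list was -0.11 in PUT and -0.15 in CN, with 2 members higher and 3 lower of 13 in PUT, where 5.64% and 8.48% of all genes were. In CN it was 2 and 4 of 13, against 4.97% and 13.2%. The members higher in both were NLRC5 and TAP1, and NLRC5 measured 2.80 CPM in PUT CT, 5.13 in PUT PD, 2.47 in CN CT and 5.10 in CN PD. The class II list had medians of -0.11 in PUT and 0.91 in CN, and the interferon list -0.28 and 0.16. CD74 had ratios of 2.25 (1.70 to 3.00) in PUT and 3.99 (2.99 to 5.39) in CN. IFI44L had 2.49 (2.02 to 3.08) and 3.69 (2.96 to 4.64), and IFIT3 0.528 (0.330 to 0.825) and 0.601 (0.378 to 0.946). HLA-E in PUT had 0.940 (0.749 to 1.17) and C1QA 0.919 (0.750 to 1.12). Whether the regions differ was not tested.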

How the data were processed

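Single-nucleus RNA was counted by the authors with Cell Ranger 7.0.1, per the file headers, and deposited as whole-number UMI counts per gene and barcode, 1 matrix for each region and treatment. The genes carry identifiers of the cynomolgus macaque (22316, of which 16297 have a symbol), while the submitters' processing notes name the build hg38. The treatment of each matrix was read from its own name, matched to the sample labels, and the matrices pool the labelled samples.

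Barcodes with 500 or more genes were kept, doublets were not removed, and UMIs were summed over each library and divided by its total. A gene was measured with 50 or more UMIs over both SN libraries. A ratio used CPM and its exact conditional binomial 95% interval, which covers counting error only, and a log2 ratio had 0.5 UMI added to each side. Genes past 1.5-fold were counted on the log2 ratio alone, with no test. Where a library had no UMI, the bound was set against 3 UMIs in that library.

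The 14 highest and 14 lowest genes were taken by the interval bound that lies nearest to 1, among genes whose symbol occurs once, without mitochondrial, ribosomal and hemoglobin genes. In each of 27 gene lists and 15 marker classes, up to 5 members a direction were named by the bound farthest from 1, with TH, SLC6A3, PARP1 and PARG whatever their value. Some genes are counted in their lists but not reported here by name. The members, lists and markers were chosen with earlier results of these data known. Other members of a list, neighbours in the RefSeq gene table of a cynomolgus assembly (25 of the 28 genes matched) and genes counted in small sets of barcodes were named after their values had been seen. Alternatives changed the barcodes kept, the UMI minimum, the fold, the weight of barcodes and the scaling, including TMM factors from edgeR 4.0.16 in R 4.3.3. The ratio and interval were tested on simulated counts. Python 3.11.15, numpy 2.4.6, scipy 1.17.1, pandas 2.3.3 and matplotlib 3.10.9 were used.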

Additional observations from a re-analysis of the deposited data

Results flagged for a closer look

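Of the features with no symbol, which enter none of the gene groups above, 4 stood out in the SN libraries. ENSMFAG00000045054 had 1 UMI in CT and 352 in PD, a log2 ratio of 8.14, with 1 and 35 UMIs in PUT CT and PUT PD and 0 and 88 in CN. ENSMFAG00000042753 had 3 and 312 UMIs, a log2 ratio of 6.75, and none in the PUT or CN libraries. ENSMFAG00000046673 had 225 UMIs in SN CT and 2 in SN PD, a log2 ratio of -6.23, with 284 and 2 UMIs in PUT and 161 and 2 in CN. ENSMFAG00000047024 had 90 and 5 UMIs, a log2 ratio of -3.77. None of the 4 was paired with a symbol in the files.

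Of the genes highest in SN PD, 2 were lower in PD in a striatal region, a difference that was not tested. PENK, the enkephalin precursor, had a log2 ratio of -0.98 in PUT. SIGLEC1, the macrophage lectin, had -1.07 in PUT and -0.84 in CN.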

How the results depend on the processing

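Each side was 1 library, so depth limits only the counting error, and the difference between animals cannot be estimated. No paired analysis was possible because the matrices pool the labelled samples with no map from barcodes to samples, and leaving out a replicate was not possible for the same reason. Over the alternatives other than the 2 that follow, between 745 and 1405 genes were higher and between 972 and 1552 lower past 1.5-fold. With at least 200 UMIs, which tests fewer genes, 567 were higher and 651 lower, and past a fold of 2 410 were higher and 435 lower. Of the values that reversed, all were neuronal marker sums. On the log2 scale the GABAergic neuron sum was -0.078 with equal weight per barcode and -0.17 in barcodes with fewer than 1000 genes. The neuron sum was 0.068 with equal weight, 0.059 when thinned to 1000 UMIs and 0.14 in barcodes with fewer than 1000 genes, where the dopaminergic neuron sum was 0.058. The cause was not tested. Among named genes, thinning to 1000 UMIs moved CETP from 3.42 to 4.81 and CFAP157 from -2.82 to -3.63, and leaving out barcodes with an immune marker UMI moved IGKC from 2.94 to 4.70, SIGLEC1 from 3.98 to 2.38, CERS3 from -3.26 to -4.26 and LIPN from -2.49 to -0.86, all on the log2 scale. TMM and median-ratio scaling had log2 shifts of 0.0038 and -0.0012 between the libraries, and all log2 ratios moved by the size of that shift. The immediate early list had no median with at least 200 UMIs. The sets with fewer than 1000 genes and without immune marker UMIs were added after seeing the data.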
